A study of Mus musculus with 5 samples.

Results

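The expression of 43 genes of the cell cycle was examined in 5 RNA-seq libraries of cultured mouse brain cells. They were chosen by symbol, as genes of S phase and mitosis, and each of the 43 was found as 1 RefSeq transcript among the 20178 transcripts of the count tables. By role, 16 act in the entry to and passage through S phase, 24 act in mitosis and 3 are transcription factors of the cycle. All 5 cultures came from ICR mice and were used after 2 passages. The cortical (Ctx) neural progenitor cells (NPCs) came from embryos at E12. The other 4 cultures were taken on postnatal day 5 and are labelled astrocyte progenitor cells, 1 of them from the cortex and 3 from the ventral midbrain (VM). One VM culture received no virus, and the other 2 were transduced with lentiviruses, either mock virus or viruses expressing Nurr1 and Foxa2, transcription factors of midbrain dopamine neurons. Per the study's methods, a CMV promoter drives Nurr1, given as mouse, and Foxa2, given as rat, in the vectors. The methods also call all inserts mouse genes. The empty vector is the mock virus.

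The labels of the 2 transduced VM libraries contradict each other. The library whose title ends in C carries a treatment entry for the Nurr1 and Foxa2 viruses, and the library whose title ends in NF carries an entry for mock virus. Here they are named by title only, as the library titled C and the library titled NF, and every direction given for them as treatments would turn with the labels. Nr4a2, which encodes Nurr1, had 93 reads in Ctx NPCs, 106 in Ctx astrocytes, 81 in VM astrocytes without virus, 53 in the library titled C and 183 in the library titled NF. In these libraries Foxa2 had 0, 1, 68, 15 and 216 reads. The peak of both genes was in the library titled NF, which goes with its title and against its treatment entry. Across all transcripts, however, the library titled NF was close to VM astrocytes without virus, with 0.322% of transcripts at least 2-fold higher and 0.668% lower, whereas the library titled C had 7.3% higher and 8.48% lower. Neither measurement settles which label is right. The methods give the vector's Foxa2 as rat but also call all inserts mouse genes. How many reads of a rat Foxa2 would be counted on the mouse transcript was not tested.

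There was 1 library per condition, so no difference below has a replicate check or a p-value, and each comparison is one of 2 libraries. Library totals lay between 20010818 and 22554835 reads. The lowest read count of any of the 43 genes was 15. Ratios are given as log2 of the reads of the first library over the second, each scaled to its library total (CPM, counts-per-million) with 0.5 reads added. Their exact (Clopper-Pearson) 95% intervals cover counting error only. A gene was counted as higher or lower at 2-fold or more with an FPKM (fragments per kilobase of exon, per-million reads) above 1 in at least 1 of the 2 libraries, a minimum that all 43 genes passed in all 5 comparisons. In bulk RNA, fewer dividing cells and less of these transcripts per dividing cell cannot be told apart.

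The cell cycle is driven by cyclin-dependent kinases and their cyclin partners. Late in G1, cyclin D with CDK4 or CDK6 and then cyclin E with CDK2 inactivate the retinoblastoma (Rb) family, which frees E2F factors to switch on the genes of DNA replication. Mitotic genes follow later, when MYBL2 and FOXM1 act with the MuvB complex at promoters that carry a cell cycle homology region (CHR). Most cells of the adult brain are out of the cycle, whereas embryonic cortical progenitors and glial progenitors kept in culture divide.

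The 43 transcripts summed to 1915 CPM in Ctx NPCs, 598 CPM in Ctx astrocytes, 1701 CPM in VM astrocytes without virus, 1973 CPM in the library titled C and 1457 CPM in the library titled NF. Ctx astrocytes were the low library for nearly the whole set, with the lowest CPM of the 5 for 42 of the 43 genes. The exception was E2f1, which was lowest in Ctx NPCs. The median FPKM of the set was 10.6 in Ctx NPCs, 3.15 in Ctx astrocytes, 12.3 in VM astrocytes without virus, 13.2 in the library titled C and 9.78 in the library titled NF. All 43 genes had an FPKM above 1 in Ctx NPCs, VM astrocytes without virus and the library titled C, against 42 in the library titled NF and 36 in Ctx astrocytes.

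**Figure D1:**
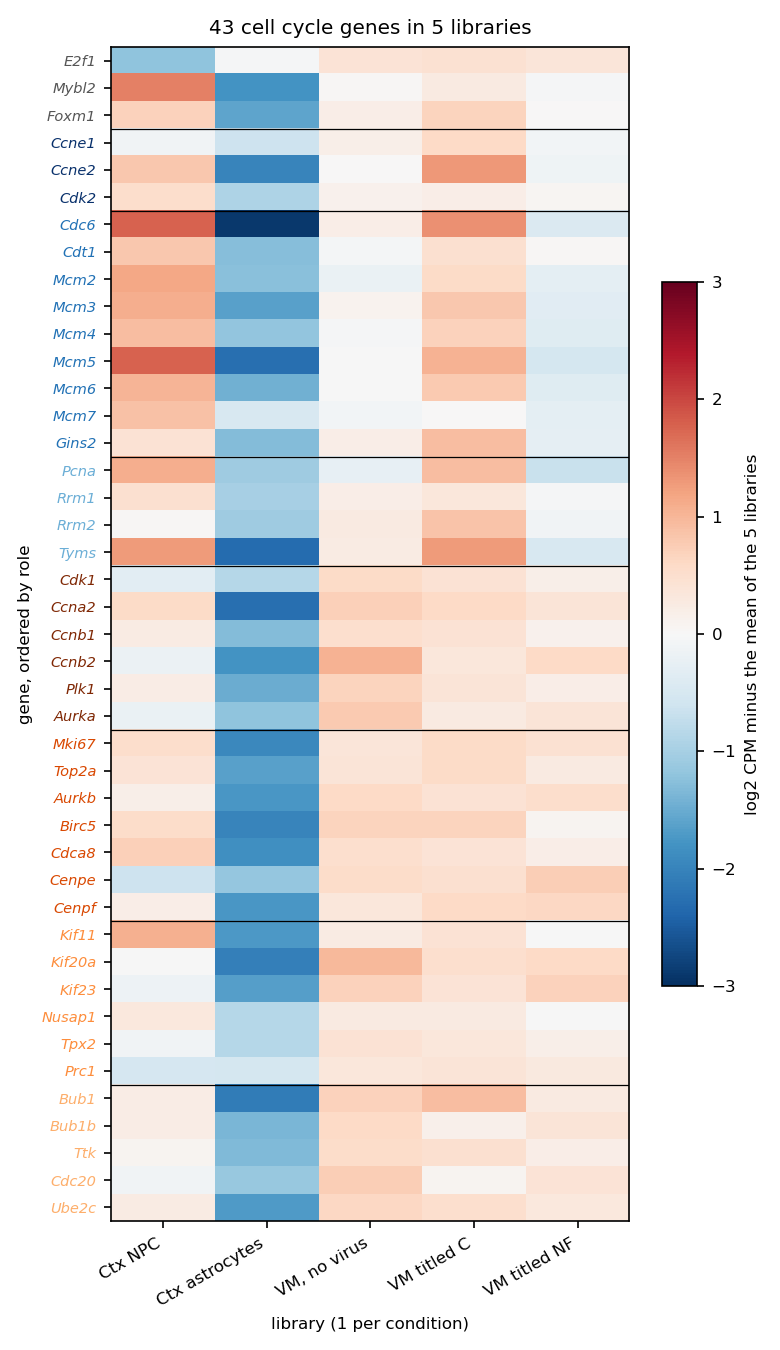
Level of each of the 43 genes (rows, ordered by role, with lines between the 8 roles) in each library (columns), as log2 CPM minus the mean of the 5 libraries. The Ctx astrocyte column holds the lowest value for 42 genes, and the S phase genes in the upper part are highest mostly in Ctx NPCs (12 of 16) and the library titled C (4 of 16).

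The genes of the 2 phases were not highest in the same libraries. Of the 16 S phase genes, 12 were highest in Ctx NPCs and 4 in the library titled C, and none in the other 3 libraries. Of the 24 mitosis genes, 15 were highest in VM astrocytes without virus, 4 in the library titled C, 3 in Ctx NPCs and 2 in the library titled NF. On the FPKM scale, which allows for transcript length, the summed level of the S phase genes was 1.63 times that of the mitosis genes in Ctx NPCs, 1.31 times in Ctx astrocytes and 1.25 times in the library titled C. It was 0.731 times in VM astrocytes without virus and 0.725 times in the library titled NF. These sums are over 16 and 24 genes, so a value below 1 does not mean a lower level per gene. The median FPKM of the S phase genes was above that of the mitosis genes in every library. The 2 medians were 23.1 and 8.45 in Ctx NPCs, 5.58 and 2.52 in Ctx astrocytes, and 20.2 and 9.67 in the library titled C. They were close in VM astrocytes without virus, at 12.8 and 11.8, and in the library titled NF, at 9.91 and 9.61.

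The first comparison asked how postnatal astrocyte cultures of the 2 regions differ, both without virus. All 43 genes were lower in Ctx than in VM astrocytes, with a median log2 ratio of -1.87, and the counting interval lay below 0 for each. Of the 43 genes, 38 were at least 2-fold lower and 0 were 2-fold higher, against 9.89% and 4.49% of the 12553 transcripts that passed the same minimum. The median over all these transcripts was -0.05. The mitosis genes differed more, with 23 of 24 lower and a median of -2.05, than the S phase genes, with 13 of 16 lower and a median of -1.29.

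The largest ratio was that of Cdc6, which loads the replicative helicase onto origins. It had 353 reads in Ctx NPCs, 15 in Ctx astrocytes, 128 in VM astrocytes without virus, 306 in the library titled C and 78 in the library titled NF, and its Ctx to VM log2 ratio was -3.06 (interval, -3.98 to -2.33). Kif20a, a kinesin of the central spindle, had 467, 123, 988, 750 and 723 reads in the same order of libraries. Ccna2, the cyclin A of S phase and mitosis, had 1017, 154, 1197, 1176 and 908 reads. Both Kif20a, at -3.01 (interval, -3.30 to -2.74), and Ccna2, at -2.96 (interval, -3.22 to -2.72), were about as far below VM astrocytes as Cdc6, and neither interval reached the 2-fold line.

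Among the mitotic kinases and cyclins all 6 genes were at least 2-fold lower in Ctx astrocytes. Cdk1, the kinase that starts mitosis, had 766 reads in Ctx NPCs, 560 in Ctx astrocytes, 1519 in VM astrocytes without virus, 1443 in the library titled C and 1084 in the library titled NF. Ccnb1, its cyclin B partner, had 404, 147, 513, 515 and 374 reads. Plk1, a kinase of mitotic entry and spindle poles, had 366, 119, 530, 458 and 361 reads. Ctx astrocytes were thus the low library for each, with Ctx to VM log2 ratios of -1.45, -1.81 and -2.16.

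The chromosome and centromere genes gave the lowest median of the 8 roles, -2.29, with all 7 at least 2-fold lower. Mki67, which coats mitotic chromosomes and is the common stain for cycling cells, had 1936 reads in Ctx NPCs, 381 in Ctx astrocytes, 1855 in VM astrocytes without virus, 2270 in the library titled C and 1885 in the library titled NF. Top2a, the topoisomerase that untangles sister chromatids, had 2487, 644, 2613, 3137 and 2298 reads. For both, 4 of the libraries lay close together and Ctx astrocytes stood apart, at -2.29 and -2.03 against VM astrocytes. Aurkb and Birc5, members of the chromosomal passenger complex that corrects faulty spindle attachments, had 85 and 77 reads in Ctx astrocytes against 431 and 477 in VM astrocytes without virus.

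All 5 genes of the spindle checkpoint and the anaphase-promoting complex (APC/C) were also at least 2-fold lower. Bub1, a checkpoint kinase of the kinetochore, had 285 reads in Ctx NPCs, 61 in Ctx astrocytes, 418 in VM astrocytes without virus, 520 in the library titled C and 300 in the library titled NF. Cdc20, which activates the APC/C, had 537, 283, 1038, 691 and 787 reads. Ube2c, the ubiquitin-conjugating enzyme of the APC/C, had 490, 137, 682, 656 and 524 reads. Their Ctx to VM log2 ratios were -2.78, -1.88 and -2.32.

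The 5 genes that stayed within 2-fold between the regions were Mcm7, a helicase subunit, at -0.40, E2f1 at -0.45, Ccne1 at -0.79, Pcna at -0.82 and Prc1, which bundles midzone microtubules, at -0.87. Cdk2 and Mcm2 lay just past the limit, each at -1.05. The exons of Mcm7 and Prc1 overlap those of other genes on the other strand, and the effect on their ratios was not tested. Summed marker levels of other cell types differed between the same libraries. The 14 measured of 15 listed microglia markers summed to 142 CPM in Ctx and 345 CPM in VM astrocytes, and 10 of them were at least 2-fold lower in Ctx. The 8 markers of fibroblasts and mural cells summed to 1589 and 3450 CPM, with 3 at least 2-fold lower. The 10 astrocyte markers went the other way, with 4413 CPM in Ctx and 2021 CPM in VM astrocytes, and 6 at least 2-fold higher in Ctx. Their part in the difference was not tested. The library titled NF in place of VM astrocytes without virus gave a median of -1.59.

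**Figure D2:**
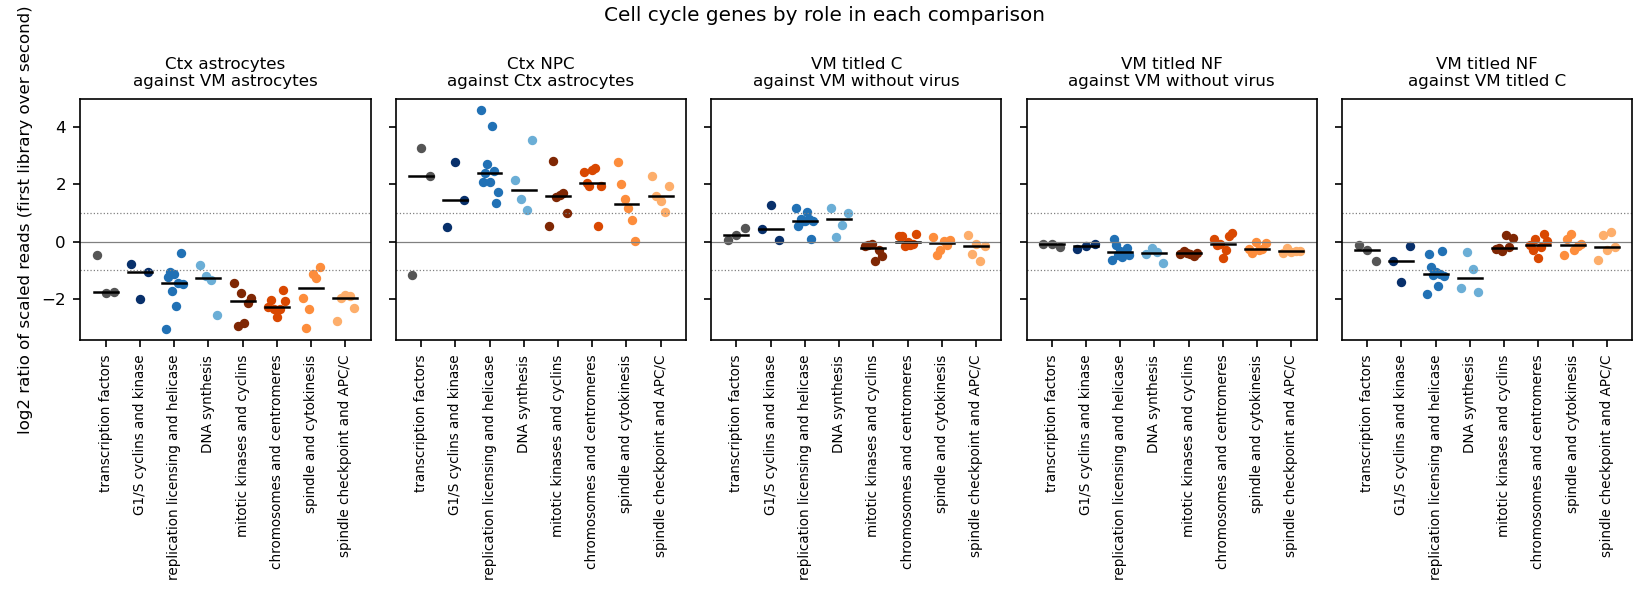
The log2 ratio of scaled reads (y axis) of each gene (points) by role (x axis) in each of the 5 comparisons (panels). Black bars are medians of a role, dotted lines mark 2-fold, and the S phase roles in blue part from the mitosis roles in orange and brown in the panels of the library titled C, with medians of 0.73 and -0.11 against VM astrocytes without virus.

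The second comparison set embryonic Ctx NPCs against postnatal Ctx astrocytes, which shares the Ctx astrocyte library with the first. Of the 43 genes, 37 were at least 2-fold higher in Ctx NPCs and 1 was lower, against 20.1% higher and 17.9% lower of 12623 transcripts. The median was 1.93 for the set and 0.19 for all transcripts. Here the S phase genes differed more, with 15 of 16 higher and a median of 2.13, than the mitosis genes, with 20 of 24 higher and a median of 1.67.

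Replication licensing genes had the highest ratios. Cdc6 stood at 4.61 (interval, 3.91 to 5.51), a 24.4-fold difference on this scale. Mcm5, a subunit of the MCM helicase that unwinds DNA at origins, had 1531 reads in Ctx NPCs, 99 in Ctx astrocytes, 474 in VM astrocytes without virus, 1030 in the library titled C and 314 in the library titled NF, which gave 4.04 (interval, 3.76 to 4.36) for NPCs against Ctx astrocytes. All 9 licensing and helicase genes were past 2-fold. Cdt1, the partner of Cdc6 in licensing, had 725, 184, 430, 658 and 438 reads in the same order, and Mcm2 had 2019, 406, 836, 1520 and 743 reads, with ratios of 2.07 and 2.41.

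All 4 genes of DNA synthesis were also past 2-fold, with a median of 1.82. Tyms, the thymidylate synthase, had 438 reads in Ctx NPCs, 39 in Ctx astrocytes, 229 in VM astrocytes without virus, 492 in the library titled C and 131 in the library titled NF. Its ratio of NPCs to Ctx astrocytes was 3.57 (interval, 3.11 to 4.10). Pcna, the sliding clamp of the replicative polymerases, had 1645, 396, 695, 1673 and 495 reads, and Rrm2, the regulated subunit of ribonucleotide reductase, had 1606, 806, 2027, 3217 and 1494 reads. Pcna was 4.45-fold and Rrm2 2.13-fold higher in NPCs than in Ctx astrocytes, and Rrm2 was still lower in NPCs than in VM astrocytes without virus.

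The 3 transcription factors did not move together. Mybl2, the B-MYB factor that turns on late S phase and mitotic genes, had 341 reads in Ctx NPCs, 37 in Ctx astrocytes, 130 in VM astrocytes without virus, 162 in the library titled C and 118 in the library titled NF. Foxm1, an activator of mitotic genes, had 928, 204, 693, 1029 and 583 reads. E2f1, an activator of S phase genes, had 316, 760, 1035, 1129 and 944 reads. Against Ctx astrocytes, NPCs were higher for Mybl2, at 3.29 (interval, 2.81 to 3.83), and Foxm1, at 2.28 (interval, 2.06 to 2.51), but lower for E2f1, at -1.17 (interval, -1.36 to -0.98).

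Within the cyclin E group the 2 genes differed. Ccne2 had 239 reads in Ctx NPCs, 37 in Ctx astrocytes, 148 in VM astrocytes without virus, 378 in the library titled C and 128 in the library titled NF. Ccne1 had 361, 270, 463, 662 and 373 reads, and their kinase partner Cdk2 had 901, 353, 728, 799 and 656 reads. NPCs were 6.84-fold higher than Ctx astrocytes for Ccne2 but only 1.43-fold for Ccne1. The exons of Ccne2 overlap those of Ints8 on the other strand, and reads of such pairs can be mixed because the strand setting of the count is not given in the sources used here. In all, 11 of the 43 genes have exons that overlap another gene in GENCODE M21. They are Ccne2, Mcm7, Gins2, Ccna2, Plk1, Kif20a, Nusap1, Prc1, Cdc20 and Ube2c, on the other strand, and Foxm1, on the same strand.

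In the spindle group, Kif11, the kinesin that pushes spindle poles apart, had 593 reads in Ctx NPCs, 92 in Ctx astrocytes, 363 in VM astrocytes without virus, 435 in the library titled C and 287 in the library titled NF. Prc1 had 786, 825, 1501, 1637 and 1394 reads. Kif11 was 6.87-fold higher in NPCs than in Ctx astrocytes, whereas Prc1 was level at 0.03 (interval, -0.11 to 0.17). The other genes under 2-fold were Ccne1 at 0.52, Cenpe, a kinesin of the kinetochore, at 0.53, Cdk1 at 0.55, and Tpx2, a factor of spindle assembly, at 0.75. Scaling by TMM, median of ratios or the upper quartile lowered all ratios of this comparison by 0.17 to 0.18 (log2), which put Prc1 below 0, at -0.16 to -0.14, and turned no other gene of the set.

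Markers of other cell types differed widely between these 2 libraries. All 8 mature oligodendrocyte markers were at least 2-fold higher in NPCs, and they summed to 7754 CPM in Ctx NPCs and 311 CPM in Ctx astrocytes. Of the 8 oligodendrocyte progenitor markers 7 were higher (3718 and 529 CPM), and of the 10 neuron markers 9 were higher and 1 was lower (1309 and 454 CPM). Of the 10 neural progenitor markers 5 were at least 2-fold higher in NPCs and 1 was lower, with 8 above 0 and a median of 1.09. Their sum was nonetheless lower in NPCs, at 6338 against 9074 CPM, because it is mostly Vim, with 3443 CPM in NPCs and 7704 CPM in Ctx astrocytes. Of the 10 astrocyte markers 3 were at least 2-fold higher in NPCs and 1 was lower, with 9 above 0 and a median of 0.72. They summed to 10804 and 4413 CPM, and the sum in NPCs is mostly Gfap, with 6123 CPM in NPCs and 1298 CPM in Ctx astrocytes. The part of all these markers in the difference was not tested, and stage, cell type and culture cannot be told apart here.

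The choice of astrocyte library changed this comparison, as seen when NPCs were set against VM astrocytes without virus, a comparison chosen after the data were seen. Then 7 of the 43 genes were at least 2-fold higher in NPCs, 3 were lower and the median was -0.11, against 17.9% higher, 20.2% lower and a median of 0.16 for 12929 transcripts. The S phase genes were mostly higher, with 14 of 16 above 0 and a median of 0.96. The mitosis genes were mostly lower, with 5 of 24 above 0 and a median of -0.43. The 3 lower genes were E2f1 at -1.62, Ccnb2, a cyclin B, at -1.20, and Cenpe at -1.16.

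The third comparison set the library titled C against VM astrocytes without virus. The set as a whole stayed near level, with a median of 0.10 against -0.01 for all transcripts. Its S phase genes were higher, whereas its mitosis genes were mixed in direction. All 16 S phase genes were above 0, 15 of them with intervals above 0, and their median was 0.73. Of the 24 mitosis genes, 17 were below 0, 9 with intervals below 0, and 7 were above 0, 4 with intervals above 0. The median of the mitosis genes was -0.11. Under the other 3 scalings all 16 S phase genes stayed above 0, and 16 mitosis genes stayed below 0.

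Of the 43 genes, 5 were at least 2-fold higher in the library titled C and 0 were lower, against 7.3% higher and 8.48% lower of 12703 transcripts. The 5 were all S phase genes. Ccne2 stood at 1.27 (interval, 0.99 to 1.55), Pcna at 1.18 (interval, 1.06 to 1.31) and Cdc6 at 1.17 (interval, 0.87 to 1.48). Mcm5, at 1.04, and Tyms, at 1.02, lay just past 2-fold, and Mcm2 and Mcm6 just short of it, each at 0.78. Only the interval of Pcna lay wholly past 2-fold, and at a limit of 2.6-fold 0 of the 5 were left.

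Among the roles within S phase, the 9 licensing and helicase genes had a median of 0.73, the 4 DNA synthesis genes 0.80 and the 3 genes of G1/S cyclins and kinase 0.43. Ratios of the MCM subunits varied, since Mcm7 stood at 0.10 while Mcm2 to Mcm6 stood between 0.71 and 1.04. The exons of Mcm7 overlap those of Ap4m1 and Cops6 on the other strand. Whether reads of these genes entered its count was not tested. Rrm1, the large subunit of ribonucleotide reductase, stood at 0.15 and Rrm2 at 0.58. E2f1 was level at 0.04 (interval, -0.08 to 0.17), as was Cdk2 at 0.05, and Foxm1 stood at 0.49.

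The lowest ratios were those of mitosis genes. Ccnb2 had 241 reads in Ctx NPCs, 83 in Ctx astrocytes, 589 in VM astrocytes without virus, 389 in the library titled C and 413 in the library titled NF. It stood at -0.68 (interval, -0.87 to -0.49), Cdc20 at -0.67 (interval, -0.81 to -0.53) and Aurka, a kinase of the spindle poles, at -0.52 (interval, -0.71 to -0.33). All 6 mitotic kinases and cyclins were below 0. Mki67, at 0.21, and Top2a, at 0.18, were among the 7 mitosis genes above 0.

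**Figure D3:**
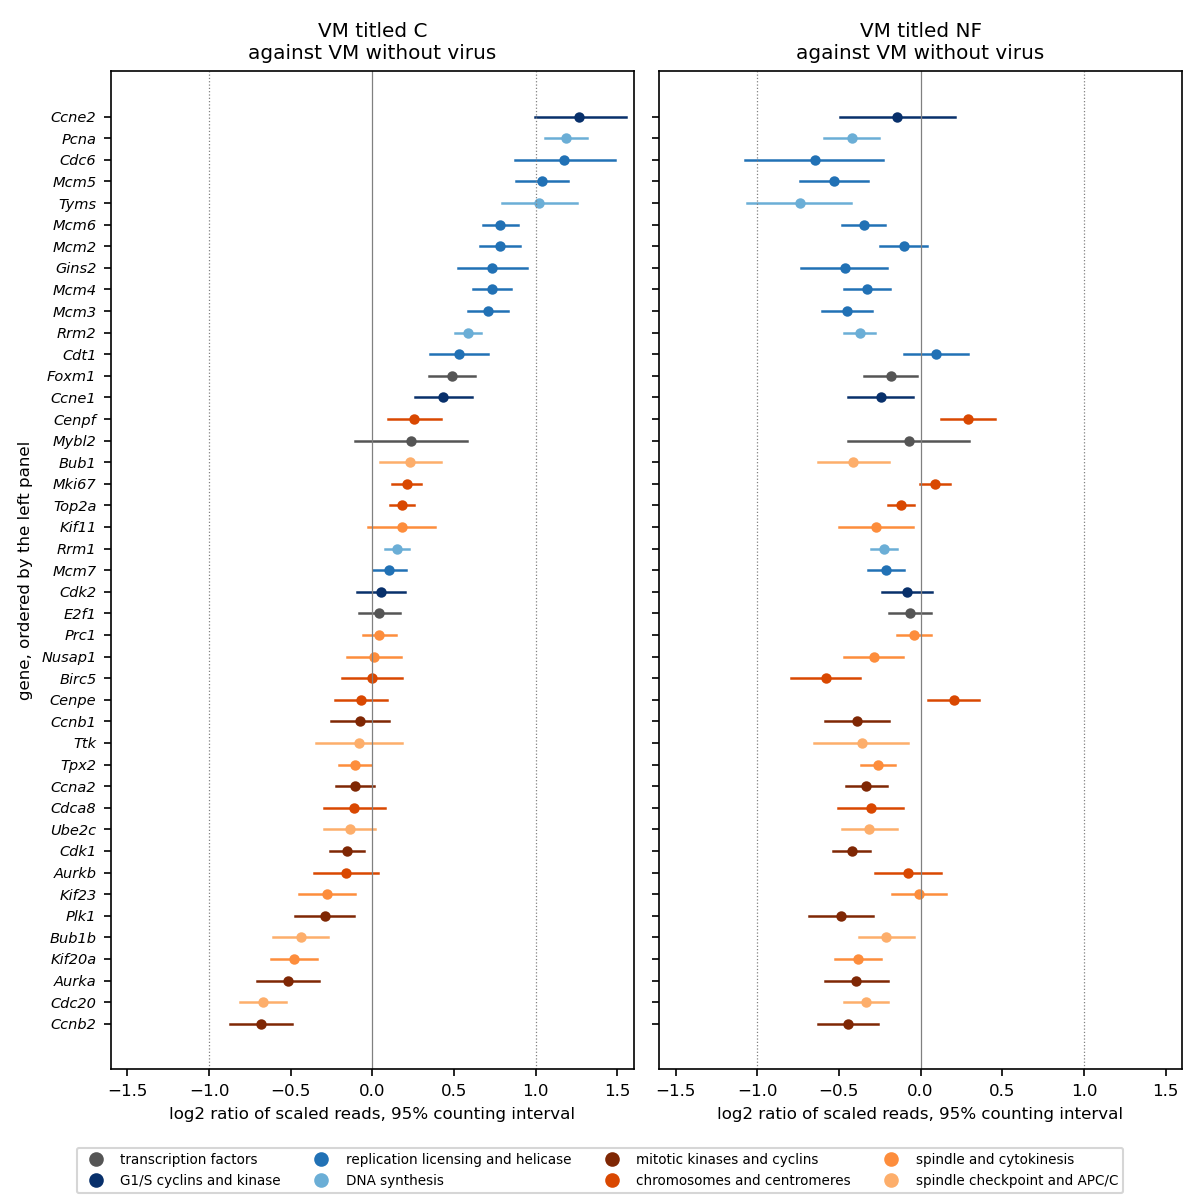
The log2 ratio to VM astrocytes without virus (x axis) of each gene (y axis, ordered by the left panel), with the library titled C on the left and the library titled NF on the right. Points are coloured by role, lines are 95% counting intervals and dotted lines mark 2-fold; blue S phase genes fill the top of the left panel, up to 1.27, and in the right panel 39 of 43 genes lie below 0.

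Markers of several other cell types moved with the library titled C. The 14 measured microglia markers summed to 345 CPM in VM astrocytes without virus, 1296 CPM in the library titled C and 259 CPM in the library titled NF. Of the 14, 0 were at 0 in any of these. All 14 were higher in the library titled C than without virus, 12 of them by at least 2-fold with an FPKM above 1. Of the 8 mature oligodendrocyte markers 6 were at least 2-fold higher in the library titled C (269, 423 and 216 CPM in the same order), as were 4 of 8 oligodendrocyte progenitor markers (409, 815 and 354 CPM). Of the 10 neuron markers 5 were higher, although their sum was not (701, 575 and 602 CPM). All 7 ependymal markers were below 0, 6 of them at least 2-fold lower (334, 62.2 and 315 CPM). The 8 fibroblast and mural markers were split, with 4 above and 4 below 0, and their sums of 3450, 1901 and 3469 CPM were mostly Col1a1, Col1a2 and Acta2, all lower in the library titled C. Their part in the S phase and mitosis ratios was not tested.

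The fourth comparison set the library titled NF against VM astrocytes without virus, the library that the comparisons of region and of the library titled C also use. None of the 43 genes reached 2-fold in either direction, against 0.322% higher and 0.668% lower of 12428 transcripts. Small differences lay mostly to one side, with 39 of 43 genes below 0, 31 of them with intervals below 0, and a median of -0.30 against -0.05 for all transcripts. Both phases took part, with medians of -0.34 for S phase and -0.31 for mitosis genes. The lowest were Tyms at -0.74 (interval, -1.06 to -0.42), Cdc6 at -0.64 (interval, -1.07 to -0.23) and Birc5 at -0.58 (interval, -0.79 to -0.37). The 4 genes above 0 were Cenpf, a kinetochore protein, at 0.29, Cenpe at 0.20, Cdt1 at 0.09 and Mki67 at 0.09.

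The last comparison set the transduced VM libraries against each other. Of the 43 genes, 9 were at least 2-fold lower in the library titled NF and 0 were higher, against 9.73% lower and 9.53% higher of 12701 transcripts. All 9 were S phase genes, and the S phase median was -1.09 against -0.16 for mitosis genes and -0.02 for all transcripts. The lowest were Cdc6 at -1.82 (interval, -2.20 to -1.46), Tyms at -1.76 (interval, -2.05 to -1.48) and Pcna at -1.61 (interval, -1.76 to -1.46). Mcm5 stood at -1.56 and Ccne2 at -1.41, and the other 4 were Gins2, a subunit of the GINS part of the helicase, and the subunits Mcm3, Mcm4 and Mcm6, between -1.20 and -1.06. Of the mitosis genes, 15 were below 0 and 9 above, from Bub1 at -0.64 to Cdc20 at 0.34. If the treatment entries rather than the titles are right, each of these ratios changes its sign as a comparison of Nurr1 and Foxa2 with mock virus.

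Because the S phase and mitosis genes parted, their promoters were read for the short sequences that the cycle's factors are known to bind. RefSeq promoter windows on GRCm38.p6, from 250 bases before to 50 bases after the start, were matched for 35 of the 43 genes, with 37 windows. TTTGAA, the CHR, was in 16 of 21 windows of mitosis genes (76.2%) and 1 of 14 windows of S phase genes (7.14%), against 17.9% of all 32851 windows. The forms of the E2F site that were searched were TTCCCGC and its variants, namely TTCGCGC, likewise TTGGCGC, and lastly TTGCCGC. They were in 3 of 21 mitosis windows (14.3%) and 10 of 14 S phase windows (71.4%), against 9.57% of all. CCAAT, the NF-Y box, was common to both, in 90.5% of mitosis and 71.4% of S phase windows against 37.4% of all. Both strands were searched, and the end of TTGGCGC read on the other strand can overlap a CCAAT. A match is a description of the letters and not a bound site.

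The stretches below are examples of promoters of both phases and end at the base before the start of the gene. Not all of them follow the shares above. Capitals mark matches to the CHR, the NF-Y box or the E2F forms on either strand. Cdk1 (gene at chr10:69335146-69352912), Ccnb1 (chr13:100778739-100786486), Mcm5 (chr8:75109468-75128439) and Ccne1 (chr7:38097984-38107490) were set by rule, and Cdc20 (chr4:118432901-118437343) and Ube2c (chr2:164769929-164772902) were added after their values were seen.
Cdk1, minus strand, chr10:69352913-69353112: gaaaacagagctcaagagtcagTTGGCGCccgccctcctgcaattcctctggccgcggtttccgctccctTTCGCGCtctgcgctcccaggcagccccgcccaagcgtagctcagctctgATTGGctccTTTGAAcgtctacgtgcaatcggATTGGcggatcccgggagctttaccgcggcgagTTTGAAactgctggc
Ccnb1, minus strand, chr13:100786487-100786686: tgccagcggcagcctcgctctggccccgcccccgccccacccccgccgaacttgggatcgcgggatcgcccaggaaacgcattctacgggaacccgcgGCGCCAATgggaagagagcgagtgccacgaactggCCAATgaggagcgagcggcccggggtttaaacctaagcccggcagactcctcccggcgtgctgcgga
Cdc20, minus strand, chr4:118437344-118437543: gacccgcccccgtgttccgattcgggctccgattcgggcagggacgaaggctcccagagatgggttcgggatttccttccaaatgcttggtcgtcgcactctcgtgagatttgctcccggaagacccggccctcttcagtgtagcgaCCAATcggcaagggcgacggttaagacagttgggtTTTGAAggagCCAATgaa
Ube2c, plus strand, chr2:164769729-164769928: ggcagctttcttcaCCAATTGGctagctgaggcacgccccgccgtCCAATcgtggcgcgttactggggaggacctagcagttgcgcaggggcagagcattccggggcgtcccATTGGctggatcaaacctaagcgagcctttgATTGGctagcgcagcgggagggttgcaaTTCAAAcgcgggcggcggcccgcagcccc
Mcm5, plus strand, chr8:75109309-75109467: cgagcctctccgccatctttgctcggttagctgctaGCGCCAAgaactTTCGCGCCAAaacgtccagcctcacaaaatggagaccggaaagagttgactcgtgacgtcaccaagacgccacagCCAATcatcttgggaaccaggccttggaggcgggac
Ccne1, minus strand, chr7:38107491-38107690: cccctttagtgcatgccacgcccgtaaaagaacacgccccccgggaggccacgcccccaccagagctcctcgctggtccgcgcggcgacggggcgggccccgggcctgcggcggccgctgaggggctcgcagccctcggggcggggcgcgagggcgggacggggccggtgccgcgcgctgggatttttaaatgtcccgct

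The Cdk1 stretch holds 2 CHR, 2 CCAAT and 2 E2F matches, Cdc20 1 CHR and 2 CCAAT, and Ube2c 1 CHR and 5 CCAAT. The Mcm5 stretch holds 3 E2F matches and 1 CCAAT and no CHR. Ccnb1 holds 2 CCAAT and 1 E2F match, which share letters, and no TTTGAA, and Ccne1 holds none of the letters searched. Set against the ratios, the 16 genes with a CHR in a window had a median of -0.12 in the library titled C against VM astrocytes without virus, the 10 with an E2F form and no CHR 0.56, and the 9 with neither 0.23. This split largely follows the roles and is no separate line of support.

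Upstream of these genes stand the inhibitors of cyclin-dependent kinases and the D cyclins. Cdkn1a, the p21 inhibitor induced by p53, had 13304 reads in Ctx NPCs, 40306 in Ctx astrocytes, 30725 in VM astrocytes without virus, 22794 in the library titled C and 34204 in the library titled NF. Cdkn1b, the p27 inhibitor, had 2074, 3504, 2208, 873 and 2618 reads, and Cdkn1c, the p57 inhibitor, had 2086, 113, 401, 63 and 499 reads. Against VM astrocytes without virus, Ctx astrocytes stood at 0.38 for Cdkn1a and 0.66 for Cdkn1b but at -1.83 for Cdkn1c, the only inhibitor past 2-fold there, and the library titled C was the lowest of the VM libraries for all 3. Cdkn2a, which encodes p16 and p19ARF, had 30, 1550, 1756, 1264 and 1537 reads, so the NPC library stood far below the postnatal ones, and Ctx astrocytes stood at -0.19 against VM astrocytes without virus. Cdkn2a was counted on 1 transcript, and its reads do not tell p16 from p19ARF.

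Cdkn2b, the p15 inhibitor of CDK4 and CDK6, had 807 reads in Ctx NPCs, 6194 in Ctx astrocytes, 4973 in VM astrocytes without virus, 3545 in the library titled C and 4318 in the library titled NF. Cdkn2c, the p18 inhibitor, had 113, 423, 309, 199 and 324 reads. Ctx astrocytes stood at 0.31 and 0.44 for these against VM astrocytes without virus. All 6 measured inhibitors were lower in the library titled C than in VM astrocytes without virus, 2 of them by at least 2-fold, with a median of -0.64. The 2 were Cdkn1c at -2.74 (interval, -3.16 to -2.37) and Cdkn1b at -1.42 (interval, -1.54 to -1.31). In NPCs against Ctx astrocytes, 4 inhibitors were at least 2-fold lower and Cdkn1c was higher, at 4.30. Of all transcripts, 17.9% were lower and 20.1% higher there, and 8.48% were lower in the library titled C than without virus.

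**Figure D4:**
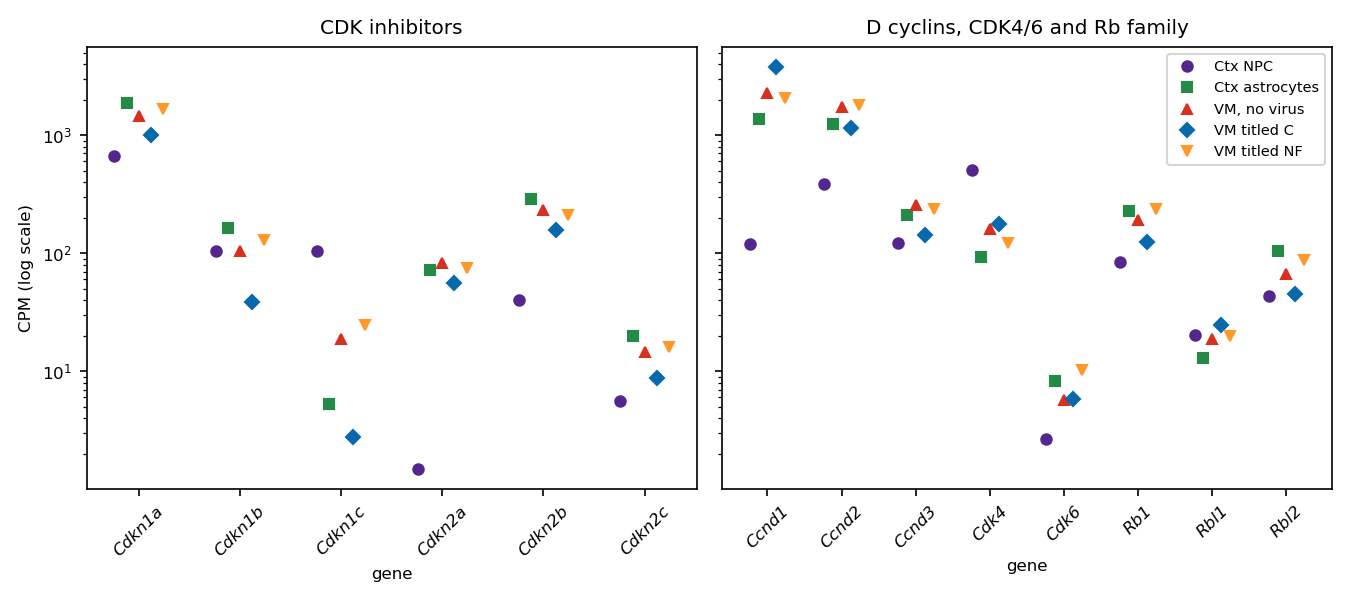
CPM (log scale, y axis) of the 6 measured inhibitors of cyclin-dependent kinases (left) and of D cyclins, CDK4, CDK6 and the Rb family (right) in each of the 5 libraries (symbols). The library titled C has the lowest symbol of the VM libraries for all 6 inhibitors and the highest for Ccnd1 of all 5 libraries, and NPCs have the highest Cdk4 and the lowest Ccnd1.

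The D cyclins followed another pattern than the 43 genes. Ccnd1 had 2385 reads in Ctx NPCs, 29542 in Ctx astrocytes, 48325 in VM astrocytes without virus, 85131 in the library titled C and 41900 in the library titled NF. Ccnd2 had 7793, 26710, 36689, 25842 and 36951 reads, and Ccnd3 had 2466, 4524, 5461, 3214 and 4785 reads. All 3 were lowest in NPCs by CPM, where the S phase genes were mostly highest. Cdk4, a kinase partner of the D cyclins, went the other way with 10057, 1996, 3434, 3952 and 2476 reads, and was 2.43 (log2) higher in NPCs than in Ctx astrocytes. In the library titled C, Ccnd1 stood 0.73 above VM astrocytes without virus, Ccnd2 0.59 below and Ccnd3 0.85 below.

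Other genes of replication and mitosis were listed apart from the 43. Between Ctx and VM astrocytes, and between NPCs and Ctx astrocytes, they mostly went the same way as the 43. In the library titled C the other mitosis genes did not lean below 0 as the mitosis genes of the 43 did. Of all transcripts, 9.89% were at least 2-fold lower in Ctx than in VM astrocytes. In NPCs against Ctx astrocytes 20.1% were higher and 17.9% lower, and in the library titled C against VM astrocytes without virus 8.48% were lower. Of 29 other replication genes, 15 were at least 2-fold lower in Ctx than in VM astrocytes, 24 were higher in NPCs than in Ctx astrocytes, and 3 were higher in the library titled C than in VM astrocytes without virus. In this last comparison 26 of 29 lay above 0 with a median of 0.48, and the 3 stand against the 7.3% of all transcripts that were higher. The highest of them there were Clspn, an adaptor of the replication checkpoint, at 1.12, and Fen1, the flap endonuclease of Okazaki fragments, at 1.04. Of 47 other mitosis genes, 35 were lower in Ctx than in VM astrocytes and 29 were higher and 2 lower in NPCs than in Ctx astrocytes, but in the library titled C 24 lay above and 23 below 0, with a median of 0.01 and 1 gene, Ckap2, past 2-fold, at -1.07. Against the library titled C, the library titled NF had 7 of 29 replication genes lower, and of the mitosis genes 1 higher and 1 lower. Of all transcripts, 9.73% were lower and 9.53% higher there.

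The remaining lists were smaller. Of all transcripts, 9.89% were at least 2-fold lower in Ctx than in VM astrocytes and 20.1% were higher in NPCs than in Ctx astrocytes. In the library titled C against VM astrocytes without virus 7.3% were higher and 8.48% lower. Of 7 other E2F factors, E2f7 and E2f8, the atypical repressors of the family, were at least 2-fold lower in Ctx than in VM astrocytes, at -2.64 and -2.20, and E2f8 was the only one past 2-fold in the library titled C, at 1.19. Of 11 genes of S phase repair and checkpoint, 8 were lower in Ctx than in VM astrocytes and 10 higher in NPCs than in Ctx astrocytes. Of 10 p53 target genes, all lay below 0 in the library titled C against VM astrocytes without virus, with a median of -0.68, and 3 were at least 2-fold lower. The lowest were Bbc3, the apoptotic PUMA gene, at -2.28, and Gadd45a, a DNA damage response gene, at -1.32. In NPCs against Ctx astrocytes 6 of the 10 were at least 2-fold lower, against 17.9% of all transcripts, with a median of -1.33.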

How the data were processed

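Reads were trimmed by the authors at a quality score of 20, checked for mismatches with Bowtie and mapped with STAR to GRCm38/mm10 per the methods, whereas the labels name mm9 as the build; the deposited coordinates were not used. The authors counted reads on RefSeq exons (Release 105) with HTSeq. The deposited counts are whole reads for each transcript without normalization. The authors' deposited FPKM values relate a count to the length of its transcript and the total of its library, and values computed anew differed by a relative 4.09e-05 at most. The labels also name bcl2fastq 1.8.4 and DESeq. A total row in each file was left out. Of 20178 transcripts, 19997 were paired with a symbol by RefSeq accession (GRCm38.p6) and 181 were not. The row with the most reads was used for a symbol.

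Each count was divided by its library's total after adding 0.5 reads in proportion to that total, and ratios were put on a log2 scale (Python 3.11.15, pandas 2.3.3, scipy 1.17.1). With 1 library per group no test of conditions was run. TMM (edgeR 4.0.16), median of ratios (DESeq2 1.42.0) and upper-quartile scaling, 5 reads added, no FPKM minimum, a minimum in both libraries, summed rows, a 2.6-fold limit, interval ends and the treatment entries were alternatives. The scripts were tested on simulated data. Named genes were fixed by role, with extremes and genes next to the 2-fold limit in each comparison. The genes and lists were chosen with earlier results of these data known. Cdkn2d, Kif14 and Cd68 were not analysed here.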

Additional observations from a re-analysis of the deposited data

How the results depend on the processing

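All counts and medians of the 43 genes kept their direction, with counts within 1.5 times, under the 3 other scalings, 5 added reads, summed rows and either change of the FPKM minimum, and of the 215 single ratios 0 changed a called sign and 12 to 13 moved beyond their counting interval under each scaling. At a 2.6-fold limit, genes lower in Ctx NPCs than in Ctx astrocytes went from 1 to 0, genes higher in the library titled C than without virus from 5 to 0, and genes lower in the library titled NF than in the library titled C from 9 to 5. Requiring the near end of the interval past 2-fold left 0 genes lower in NPCs and 1 higher in the library titled C. Here the limit itself removes genes. With treatment entries in place of titles, the comparison of C with VM astrocytes without virus gave 0 genes higher and a median of -0.30, that of NF gave 5 higher and a median of 0.10, and NF against C gave 9 higher, 0 lower and a median of 0.30. These are the same libraries under exchanged names. Chosen after the data were seen, VM astrocytes without virus in place of Ctx astrocytes gave 7 genes higher and 3 lower in NPCs with a median of -0.11, and the library titled NF in place of VM astrocytes gave a median of -1.59 for Ctx astrocytes; the cause was not tested. The 3 scalings moved the median of all transcripts by -0.18 to -0.17 between NPCs and Ctx astrocytes. No paired analysis was possible because there was 1 library per condition. No spread between cultures could be measured, so counting intervals understate the error of every ratio.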
